A study of Mus musculus with 6 samples.

Results

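The galectin genes of cultured mouse macrophages are described here. Galectins are small lectins that bind galactose-containing sugar chains on glycoproteins. They are made in the cytosol and leave the cell without a signal peptide. Outside the cell they cross-link surface receptors, and inside it they collect on damaged endosomes and lysosomes, where luminal sugar chains become exposed. Galectin-3 has long been used as a surface marker of macrophages under the name Mac-2.

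The members were Lgals1, Lgals3, Lgals8, Lgals9 and Lgals3bp, taken as every probe set whose platform annotation gave exactly 1 gene symbol that was one of these names. This gave 7 of the 45101 probe sets on the array: 2 for Lgals1, 2 for Lgals8 and 1 each for Lgals3, Lgals9 and Lgals3bp. All 5 genes lay above the filter on dim genes, so all 5 were among the 13445 genes tested. Lgals3bp encodes a ligand of galectin-3 and is not itself a galectin.

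The vimentin-deficient group and the group of wild-type littermates had 3 arrays each, all of macrophages grown from bone marrow. Both groups were on a C57BL/6 background, aged 17 weeks and fed rodent chow, and both sets of cultures were kept at normal oxygen. Femoral marrow was grown with the supernatant of CMG14-12, a cell line that secretes macrophage colony-stimulating factor. The allele, the sex of the mice and the number of mice behind each culture are not given in the labels. The series design speaks of marrow transplantation into atherosclerosis-prone mice, while the sample labels describe cultured cells only. The titles call the samples biological replicates, and if they did not come from separate animals the p-values measure a smaller spread than that between animals.

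Values are log2 probe set values as deposited, with array medians between 7.23 and 7.25. Vim read 8.20, 6.96 and 7.13 in vimentin-deficient replicates 1, 2 and 3, against 13.41, 13.24 and 13.31 in the wild-type ones, as the labels say. Vimentin-deficient replicate 3 stood apart: it correlated with the other arrays at 0.975 to 0.979 over probe sets, and the other 5 with each other at 0.992 to 0.998. Fold changes of the members are therefore given with it and without it. Results on the lists are given with all 6 arrays unless stated otherwise. The Gapdh control probe sets for the 3' and 5' ends of the transcript differed by -0.02 to 0.01 log2 units on the 6 arrays, and those for Actb by 0.18 to 0.23. The macrophage genes Cd68 and Lyz2 read at least 13.60 and 13.93 on every array. Markers of other cells were in part above the filter, at 6.93: 4 of 7 neutrophil, 1 of 4 B cell, 4 of 6 T and NK cell, 3 of 5 dendritic cell, 0 of 3 eosinophil, 2 of 4 mast cell, 5 of 7 stromal and 2 of 2 erythroid genes. The brightest of these averaged 9.15 for Cd3e, 8.67 for Pdgfrb, 8.45 for Kit and 8.14 for Cd4. Other defining genes, such as S100a9, Cd79a, Ms4a1, Cd3g and Cpa3, were below it. In bulk RNA, fewer cells of a type and less RNA per cell cannot be told apart.

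The upstream sequences of Lgals9 and Lgals3bp are shown because these were the members with higher values on every vimentin-deficient array. Both genes lie on chromosome 11 and are known from human and mouse cells to be induced by interferon. Interferon-stimulated response elements are built from a repeated GAAA core, so the 250 bases before each start site were searched on both strands for GAAANNGAAA and for GAAANNNGAAA. The second spacing was added after the sequences had been read, so the match to it in Lgals3bp tests nothing. Sequences are those of RefSeq on GRCm38.p6, written 5′ to 3′ on the strand of the gene, with matches in capitals.
Lgals9, chr11:78984925-78985174, minus strand: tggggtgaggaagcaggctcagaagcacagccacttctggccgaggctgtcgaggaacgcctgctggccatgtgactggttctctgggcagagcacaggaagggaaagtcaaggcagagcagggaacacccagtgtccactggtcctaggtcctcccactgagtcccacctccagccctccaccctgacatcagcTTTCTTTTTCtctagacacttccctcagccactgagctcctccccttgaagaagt
Lgals3bp, chr11:118401960-118402209, minus strand: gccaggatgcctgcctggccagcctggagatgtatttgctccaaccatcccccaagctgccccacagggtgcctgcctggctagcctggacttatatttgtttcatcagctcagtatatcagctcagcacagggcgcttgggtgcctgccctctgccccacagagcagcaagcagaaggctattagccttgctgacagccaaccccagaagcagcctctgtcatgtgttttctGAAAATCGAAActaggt

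The Lgals9 match has a spacing of 2 bases, runs on the opposite strand and lies 55 to 46 bases before the start site, within a run of pyrimidines. The Lgals3bp match has a spacing of 3 bases and lies 17 to 7 bases before the start site. Of 32851 mouse promoters of the same length, 2.98% held the motif with 2 bases between the cores and 2.38% the motif with 3. Among the 10 interferon response genes of the list used below that have an entry, 6 held the first and 2 the second. Those 2, Ifit3 and Rsad2, also held the first, which Lgals3bp did not. The windows of Lgals3 and Lgals8 held neither. A match in these letters is a description and not a binding site. Lgals1 is named here without a sequence.

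Lgals9 was the galectin gene with the smallest p. It encodes galectin-9, a protein with a pair of sugar-binding domains that binds the T cell receptor Tim-3 and, at damaged lysosomes, takes part in activating the kinase AMPK. Its only probe set, 1421217_a_at, read 11.56, 11.57 and 11.28 in vimentin-deficient replicates 1, 2 and 3, against 10.96, 11.00 and 11.08 in wild-type replicates 1, 2 and 3. All 3 vimentin-deficient arrays were higher than all 3 wild-type arrays, and replicates 1 and 2 were nearly equal while replicate 3 was closest to the wild type. The means were 11.47 ± 0.16 in vimentin-deficient and 11.02 ± 0.06 in wild-type macrophages (SD, n = 3 each). The log2 fold change was 0.45 (SE 0.10, 95% interval 0.21 to 0.69), a 1.37-fold difference, which did not pass the threshold of 0.05 over all genes (limma adjusted p = 0.322 with Benjamini-Hochberg).

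Without vimentin-deficient replicate 3, Lgals9 rose in vimentin-deficient macrophages. In that fit of 2 arrays against 3 its log2 fold change was 0.55 (SE 0.08, 95% interval 0.38 to 0.72), which is 1.46-fold, with a limma adjusted p of 0.00381. With limma quality weights, which keep all 6 arrays and lower the weight of the deviating one, the log2 fold change was 0.51 (limma adjusted p = 0.0324). Leaving out any other array gave log2 fold changes of 0.40 to 0.49 that did not pass. Because the groups did not overlap, none of these fits could reverse the direction. The call depended on how replicate 3 was treated.

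Lgals3bp had the largest difference among the members with all 6 arrays weighted equally. Without replicate 3 and with quality weights Lgals9 had the larger one, and Lgals3bp had 0.41 and 0.47. Lgals3bp encodes a secreted, heavily glycosylated protein of the scavenger receptor cysteine-rich family, known as Mac-2 binding protein. Probe set 1448380_at read 12.17, 12.15 and 12.92 in vimentin-deficient replicates 1, 2 and 3, against 11.58, 11.91 and 11.76 in wild-type replicates 1, 2 and 3. The groups did not overlap, and replicate 3 was the highest of all arrays. The means were 12.41 ± 0.44 in vimentin-deficient and 11.75 ± 0.16 in wild-type macrophages (SD, n = 3 each). The log2 fold change was 0.66 (SE 0.21, 95% interval 0.15 to 1.17), a 1.58-fold difference that did not pass (limma adjusted p = 0.516).

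The difference in Lgals3bp and its SE were both smaller without replicate 3, the highest array for this gene. Leaving out that array narrows the spread, so the smaller SE does not make the difference better known. Without it the log2 fold change of Lgals3bp was 0.41 (SE 0.09, 95% interval 0.20 to 0.61), or 1.33-fold. The limma adjusted p was 0.05002, just above the threshold. The gene passed in 3 of 5 other fits without replicate 3 that were added after seeing this value, at limma adjusted p = 0.0322, 0.0393 and 0.0489. Its place at the threshold thus depended on the filter and the variance prior. Without any other single array the log2 fold change lay between 0.58 and 0.79 and did not pass.

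**Figure D1:**
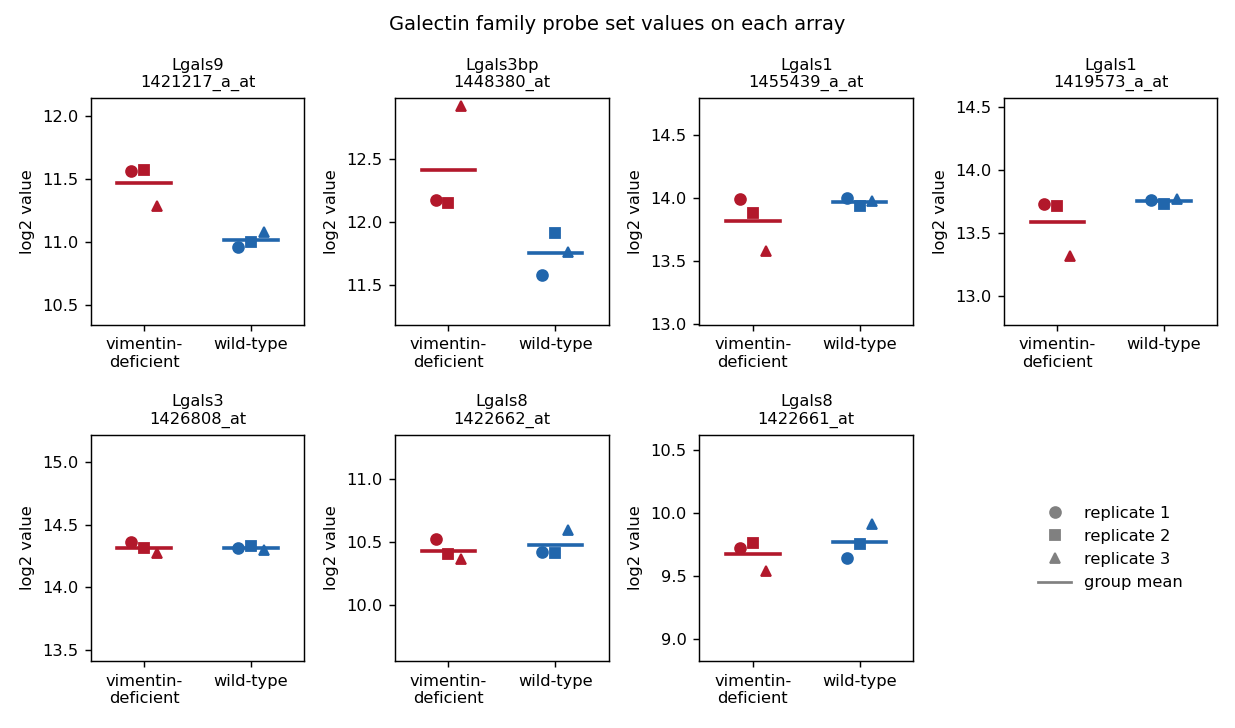
Log2 values of the 7 galectin family probe sets (y axes, all of equal span) in vimentin-deficient (left, red) and wild-type (right, blue) macrophages, with 1 point per array, a symbol for each replicate number and a line at the group mean. For Lgals9 and Lgals3bp all vimentin-deficient arrays lie above all wild-type arrays, and for Lgals1 replicate 3 of the vimentin-deficient group lies below the other 5.

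Lgals1 was lowest on vimentin-deficient replicate 3. It encodes galectin-1, a dimer of a single sugar-binding domain with known inhibitory effects on T cells. Probe set 1455439_a_at read 13.99, 13.88 and 13.58 in vimentin-deficient replicates 1, 2 and 3, against 14.00, 13.93 and 13.97 in the wild-type ones. The other probe set, 1419573_a_at, read 13.73, 13.71 and 13.31 in vimentin-deficient macrophages, against 13.76, 13.73 and 13.77 in wild-type ones. On both probe sets replicates 2 and 3 lay below all wild-type arrays, replicate 2 by a small margin, and replicate 1 lay within the wild-type range.

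The log2 fold change of Lgals1 was -0.15 (SE 0.10, 95% interval -0.39 to 0.10, limma adjusted p = 0.758), and without replicate 3 it was -0.03 (SE 0.05, 95% interval -0.14 to 0.09). The second probe set had -0.17 and, without replicate 3, -0.03. RefSeq also lists a pseudogene of Lgals1, and the probe sets may share signal with it. The receptor gene Kit, on the mast cell list, was likewise low on that array, at 9.05, 8.68 and 7.20 in vimentin-deficient replicates 1, 2 and 3, against 8.52 to 8.64 in wild-type macrophages. The mean over both mast cell genes above the filter, Kit and Mcpt4, was 7.20 to 8.12 in vimentin-deficient and 7.91 to 7.998 in wild-type macrophages. That spread rests on Kit, since Mcpt4 read 7.19, 7.32 and 7.19 in vimentin-deficient replicates 1, 2 and 3. In wild-type replicates 1, 2 and 3 Mcpt4 read 7.31, 7.37 and 7.19. Any link between the Kit and Lgals1 values was not tested.

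Lgals3 gave nearly the same value on every array. It encodes galectin-3, whose sugar-binding domain carries a long flexible tail through which the protein forms oligomers. Probe set 1426808_at read 14.36, 14.31 and 14.27 in vimentin-deficient replicates 1, 2 and 3, against 14.31, 14.33 and 14.30 in the wild-type ones. The groups overlapped fully. The log2 fold change was 0.00 (SE 0.04, limma adjusted p = 0.994), and its 95% interval, -0.09 to 0.10, bounds any difference on this scale. These values lie close to the highest value of each array, 14.46 to 14.50, where differences can be compressed, and such compression was not tested.

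Lgals8 also overlapped between the groups. It encodes galectin-8, which like galectin-9 has a pair of sugar-binding domains, and which marks damaged vacuoles for autophagy through the receptor NDP52 in human cells. Probe set 1422662_at read 10.52, 10.40 and 10.36 in vimentin-deficient replicates 1, 2 and 3, against 10.42, 10.41 and 10.59 in wild-type replicates 1, 2 and 3. For this probe set the log2 fold change was -0.05 (SE 0.09, 95% interval -0.26 to 0.17, limma adjusted p = 0.918). Without vimentin-deficient replicate 3 it was -0.01 (SE 0.09). The second probe set, 1422661_at, read 9.72, 9.76 and 9.54 in vimentin-deficient macrophages, against 9.64, 9.75 and 9.91 in wild-type ones. Wild-type replicate 3 was the highest array on both probe sets, and without it the log2 fold change of the first was 0.01. RefSeq lists 5 curated transcripts for Lgals8 and 2 each for Lgals9 and Lgals3, which these values do not separate.

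Over the family, 0 of 5 genes passed in the limma fit on 6 arrays, where 0.0223% of all tested genes did, and 2 of 5 had an unadjusted p under 0.05, where 7.97% of all genes did. In the higher direction alone that share was 3.01%. Values of 2 of 5 members did not overlap between the groups, both higher, against 5.32% of all tested genes that were higher without overlap and 15.5% without overlap in either direction. Without replicate 3 of the vimentin-deficient group, 1 of 5 rose, where 1.31% of all genes rose and 2.34% changed in either direction. At the level of probe sets 0 of 7 passed with 6 arrays, where 0.0111% of all did, and 1 of 7 without replicate 3, where 1.18% did. The median log2 fold change of the 5 genes was 0.00, and that of all tested genes -0.02. The members were chosen with earlier results of these data known, so these counts describe the family and test nothing about it.

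**Figure D2:**
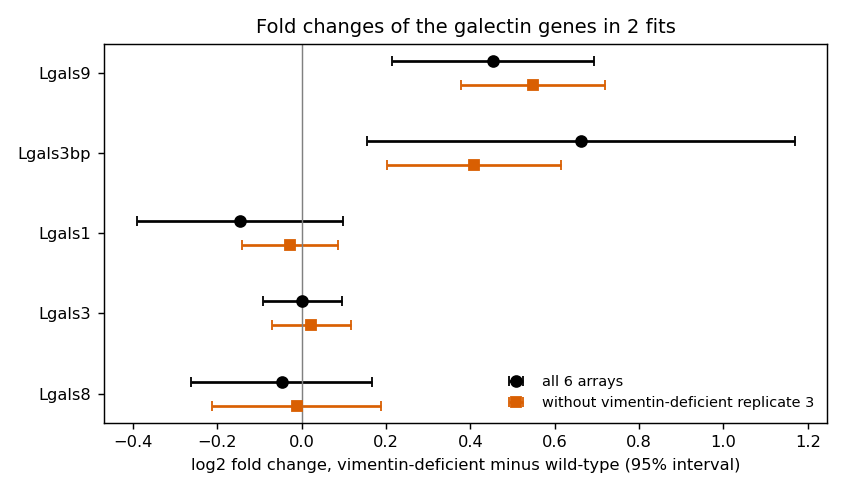
Log2 fold change (x axis, vimentin-deficient minus wild-type) of the 5 galectin family genes with 95% intervals, from limma on all 6 arrays (black circles) and without vimentin-deficient replicate 3 (orange squares). The intervals of Lgals9 and Lgals3bp lie above 0 in both fits, before adjustment over all genes, and those of Lgals1, Lgals3 and Lgals8 include 0.

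Lgals9 and Lgals3bp differed in how they varied among the vimentin-deficient arrays. Relative to the wild-type mean, Lgals9 lay 0.55, 0.55 and 0.26 log2 units higher on vimentin-deficient replicates 1, 2 and 3. Lgals3bp lay 0.42, 0.40 and 1.17 higher on the same arrays. Replicate 3 was thus the lowest of the 3 for Lgals9 and the highest for Lgals3bp, and Lgals1 was 0.39 below the wild-type mean there.

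The mean over interferon response genes was highest on the same array as Lgals3bp. Of a list of 16, 13 were tested. Set against the wild type, their averaged log2 value was up by 1.13, 1.24 and 2.12 on vimentin-deficient replicates 1, 2 and 3, while the 3 wild-type arrays spread over -0.14 to 0.13. Among its members Ifi35 read 10.73, 10.69 and 10.95 in vimentin-deficient and 9.88 to 9.96 in wild-type macrophages. Bst2 differed from the mean in being highest on replicate 1, at 11.25, 11.16 and 11.22 in vimentin-deficient replicates 1, 2 and 3. Oas1a, Oas3 and Usp18 had log2 fold changes of 0.96, 1.50 and 1.99 with 6 arrays, and 0.84, 1.31 and 1.67 without replicate 3. With 6 arrays 0 of the 13 passed in limma, where 0.0223% of all tested genes did. All 13 were higher with an unadjusted p under 0.05, against 3.01% of all tested genes. Without replicate 3 all 13 rose, where 1.31% of all tested genes rose. This list was chosen with earlier results of these data known, so its counts are a description and test nothing. The part of the interferon gene shift in the values of Lgals9 and Lgals3bp was not tested.

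**Figure D3:**
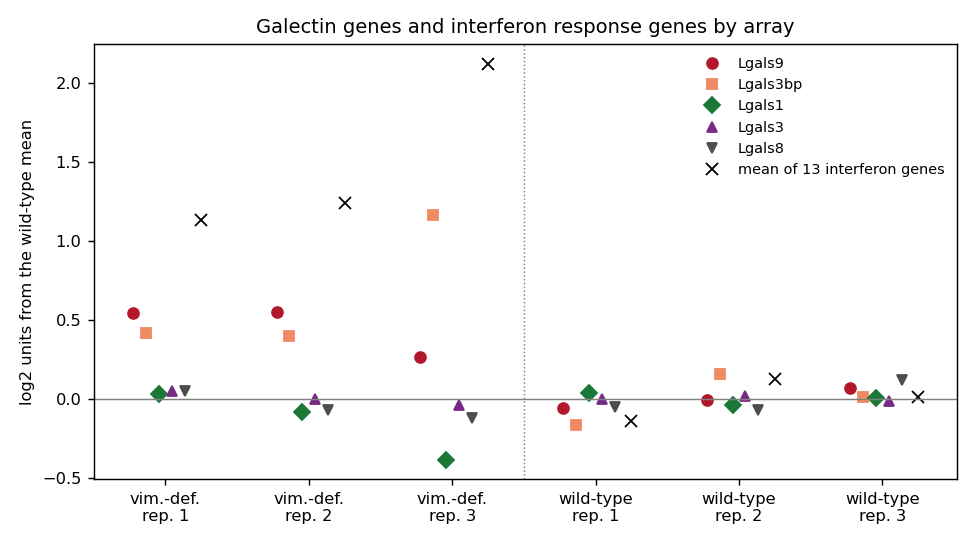
Distance in log2 units (y axis) of each galectin family gene and of the mean of 13 interferon response genes (crosses) from their wild-type mean, for the 6 arrays (x axis, vimentin-deficient left of the dotted line). On vimentin-deficient replicate 3 the interferon mean and Lgals3bp are at their highest, 2.12 and 1.17, while Lgals9 is at 0.26 and Lgals1 at -0.39.

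The genes whose values followed each member most closely were taken by Pearson correlation over the 6 arrays, among 2473 tested genes with a range of at least 0.5 log2 units. The 6 points share the genotype split and the deviating array, so the coefficients are a description. For Lgals3bp these were Sp100, a component of nuclear bodies (r = 0.9986), Ifitm6, of the interferon-induced transmembrane family (r = 0.9977), and Zup1, a deubiquitinase (r = 0.9966). Ifitm6 read 10.35, 10.43 and 12.01 in vimentin-deficient macrophages, against 9.36, 9.92 and 9.68 in wild-type ones. As with Lgals3bp, replicate 3 was the highest array and wild-type replicate 1 the lowest, a likeness that the choice by correlation fixes.

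For Lgals9 the closest genes were Marcksl1, an actin-regulating protein kinase C substrate (r = 0.9785), the interferon-induced Ifi27l2a (r = 0.9740) and Clec4e, which encodes the receptor Mincle (r = 0.9701). Clec4e read 8.71, 8.40 and 7.89 in vimentin-deficient replicates 1, 2 and 3, against 7.13, 7.10 and 7.02 in the wild-type ones. All 3 genes were, like Lgals9, lowest on replicate 3 among the vimentin-deficient arrays, which follows from choosing them by their correlation with it.

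For Lgals1 they were Slc39a8, a zinc and manganese transporter gene (r = 0.9997), Haus4, a subunit of the augmin complex of the spindle (r = 0.9961), and Tuba1a, an alpha-tubulin gene (r = 0.9956). Slc39a8 read 8.69, 8.47 and 7.84 in vimentin-deficient replicates 1, 2 and 3, against 8.71, 8.55 and 8.65 in wild-type ones. Without replicate 3 these coefficients were 0.949 to 0.996 over 5 arrays. Lgals3 and Lgals8 ranged over only 0.09 and 0.24 log2 units in all. Their closest genes were Tob1, Vill and Ralb for Lgals3 (r = 0.9791 to 0.9969) and Ndufa5, Eci2 and Tdrkh for Lgals8 (r = 0.8020 to 0.8428).

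**Figure D4:**
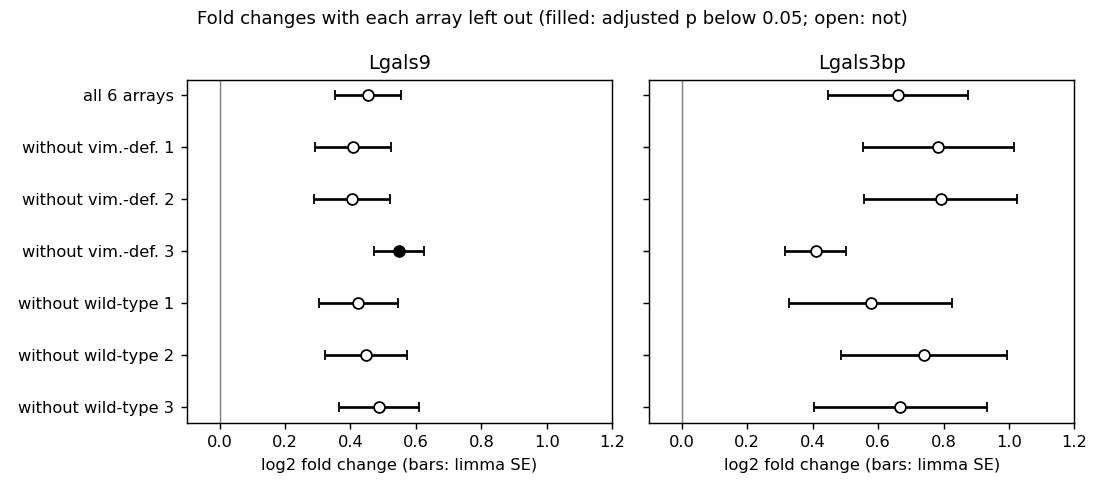
Log2 fold changes (x axes, vimentin-deficient minus wild-type, bars for the limma SE) of Lgals9 and Lgals3bp with all 6 arrays and with each array left out in turn (rows). Lgals9 passes the threshold (filled) only in the fit without vimentin-deficient replicate 3, and Lgals3bp in none of these fits.

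Other members of the galectin fold were dim. Of a list of 7, 4 were tested: Lgals2, Lgals7, Lgals12 and the galectin-related Lgalsl. The vimentin-deficient mean was the lower for all 4 and the higher for 0, where 39.6% of all tested genes had the higher mean, and their median log2 fold change was -0.06. In limma 0 of 4 passed and 0 had an unadjusted p under 0.05. Lgals2 had -0.12 (SE 0.07, limma adjusted p = 0.712), and its groups overlapped. Lgals7 had -0.06, Lgals12 -0.07 and Lgalsl -0.04. Lgalsl changed sign without replicate 3, at 0.12, since it read 7.32, 7.28 and 6.80 in vimentin-deficient and 7.10 to 7.27 in wild-type macrophages. Lgals4 and Grifin were below the filter, with at most 6.99 and 6.71 on any array.

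Partners that galectins bind were next. These are surface glycoproteins such as Cd44, Spn, Mertk and Trem2, lysosomal membrane proteins, and factors known to act with galectins at damaged lysosomes, such as Trim16 with galectin-3. Of 22 listed genes 21 were tested, and Calcoco2 was below the filter. With 6 arrays the vimentin-deficient mean was the higher for 7 and the lower for 14, or 33.3% higher against 39.6% of all tested genes. The median log2 fold change was -0.07. Without replicate 3 the mean was the higher for 11 of 21, where it was for 5980 of the 13445 tested genes, and the median was 0.005. In limma 0 passed, and 1 of 21 had an unadjusted p under 0.05, Trem2, where 7.97% of all genes did.

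Without replicate 3, 1 of 21 partners rose and 1 fell, where 1.31% of all tested genes rose and 2.34% changed in either direction. With quality weights on all 6 arrays 0 partners passed, where 93 of 13445 genes did. Spn, which encodes the sialomucin CD43, a ligand of galectin-1 on T cells, read 8.56, 8.36 and 7.79 in vimentin-deficient replicates 1, 2 and 3, against 7.89, 7.97 and 7.92 in wild-type replicates 1, 2 and 3. The first 2 lay above and the third below all wild-type arrays. With 6 arrays the log2 fold change of Spn was 0.31 (SE 0.18, limma adjusted p = 0.713) and 0.53 without replicate 3 (SE 0.08, limma adjusted p = 0.00383). With quality weights it had 0.50 and did not pass (limma adjusted p = 0.0845). A second Spn probe set had 0.32 in the fit without replicate 3 and passed too.

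Trem2 encodes a lipid-sensing receptor of macrophages that is reported to bind galectin-3. It read 12.23, 12.23 and 12.54 in vimentin-deficient macrophages, against 12.49, 12.61 and 12.75 in wild-type ones. Its log2 fold change was -0.28 with 6 arrays (SE 0.11, limma adjusted p = 0.602) and -0.39 without replicate 3 (SE 0.08, limma adjusted p = 0.0324). The call on Trem2 was lost without the variance trend in the same 5 arrays (limma adjusted p = 0.0525) and with quality weights (limma adjusted p = 0.107). Replicate 3 lay inside the wild-type range. A second, dimmer Trem2 probe set had -0.05 without replicate 3 and did not pass. Lamp1, the lysosomal glycoprotein that carries much of the cell's polylactosamine, had a log2 fold change of -0.01 (SE 0.05), and Havcr2, which encodes Tim-3, -0.16 (SE 0.20). Without replicate 3 Lamp1 had -0.03 and Havcr2 0.07.

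Enzymes that build or cap the sugar chains galectins bind did not pass. All 12 listed genes were tested, 7 with higher and 5 with lower means (58.3% higher, against 39.6% of all tested genes) and a median log2 fold change of 0.02. Without replicate 3 only 4 of 12 had the higher mean, with a median of -0.03, against 5980 of the 13445 tested genes. In limma 0 passed with 6 arrays, where 0.0223% of all tested genes did, and 0 without replicate 3, where 2.34% did. With 6 arrays 1 of 12 had an unadjusted p under 0.05, against 7.97% of all tested genes, and it was St6gal1. This gene encodes the sialyltransferase whose alpha-2,6-linked cap blocks binding of galectin-1 to N-glycans. St6gal1 read 10.31, 10.32 and 10.36 in vimentin-deficient macrophages, against 10.44, 10.74 and 10.71 in wild-type ones, without overlap. Of the 13445 tested genes, 1364 were lower without overlap. The log2 fold change of St6gal1 was -0.30 (SE 0.10, limma adjusted p = 0.536), and -0.32 without replicate 3 (limma adjusted p = 0.160). A second St6gal1 probe set had -0.29. Mgat1, which starts complex N-glycans, had -0.19 (SE 0.10), Mgat5, which adds the branch that galectin-3 prefers, -0.09 (SE 0.10), and B3gnt2, which extends polylactosamine, -0.07 (SE 0.08).

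**Figure D5:**
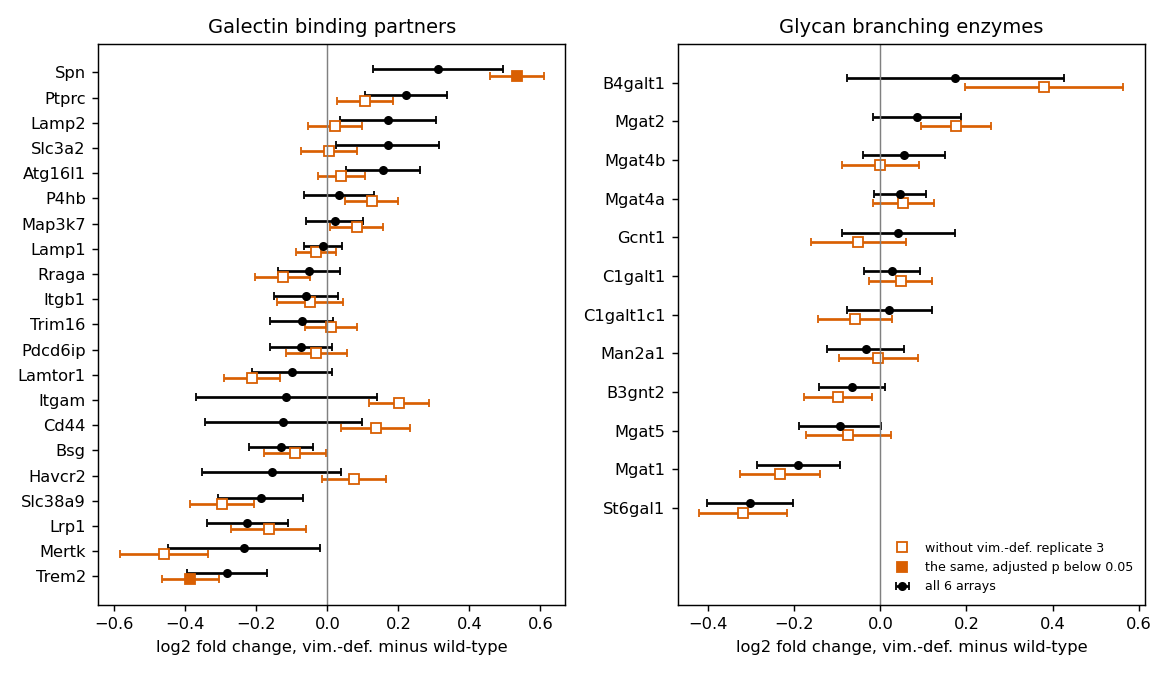
Log2 fold changes (x axes, vimentin-deficient minus wild-type, bars for the limma SE) of 21 galectin partner genes (left) and 12 glycan branching enzyme genes (right), with all 6 arrays (black) and without vimentin-deficient replicate 3 (orange, filled where the adjusted p is below 0.05). Spn and Trem2 pass without that array, in opposite directions, and no enzyme gene passes in either fit.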

How the data were processed

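Per the labels, total RNA was extracted with Trizol and hybridised as biotin-labelled cRNA to Affymetrix arrays. The authors deposited log2 values per probe set, which were used unchanged. The sources used here do not say how they were summarised, background-corrected or normalized. Of 45101 probe sets 64 are controls, 34945 have 1 symbol in the platform annotation, 932 several and 9160 none. Symbols were updated by Entrez ID through RefSeq (GRCm38.p6). A gene was represented by its brightest probe set (18193 genes) and tested if its mean reached 6.93, the 40th percentile over non-control probe sets (13445 genes).

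Genotypes were compared with limma 3.58.1 in R 4.3.3 (lmFit, eBayes with a mean-variance trend), with Benjamini-Hochberg adjustment across the tested genes, or across all 45037 non-control probe sets. Standard errors and intervals use the moderated variance. The number of arrays limits the precision. The procedure was tested on simulated data in which every array of a gene had the same variance. A deviating array such as vimentin-deficient replicate 3 was not simulated. Members, lists and alternatives were chosen with earlier results of these data known. From each list the text names genes past the threshold in any fit without 1 array, at most 4, or else the 4 with the smallest p. It also names the 3 genes closest in pattern to each member and bright marker genes. Lamp1, Havcr2, Mertk, B4galt1, single marker genes and the examples given for a list were named after their values were seen. Alternatives covered normalization, filter, probe set rule, variance model, quality weights, the replicate number as a block and each array left out. Single genes of the fixed lists without a usable probe set are not analysed here.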

Additional observations from a re-analysis of the deposited data

How the results depend on the processing

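No call of the 5 galectin genes on 6 arrays changed under quantile normalization, median centring, no filter or a 60th percentile filter. Nor did any change under both other probe set rules, both other variance models or an adjusted p of 0.10. The filter, variance model and cutoff cannot alter a log2 fold change here. The probe set rule can alter only those of Lgals1 and Lgals8, and it reversed neither. The normalizations reversed no direction, with Lgals3 at 0 after quantile normalization. Quality weights called 93 genes, among them 1 galectin gene, Lgals9 at 0.51. At an unadjusted p under 0.05 there were 1072 genes, with 2 galectin, 1 partner and 1 glycan enzyme gene. With 1 array left out, the fits added afterwards included, counts ran from 0 to 378 over all genes, 0 to 2 for galectin and partner genes and 0 to 1 for galectin probe sets. Without vimentin-deficient replicate 2 there was 1 gene past the threshold, without wild-type replicate 1, 2 or 3 there were 0, and without vimentin-deficient replicate 3 there were 315. Fits that left out that array and also changed the normalization, the filter (none, 60th percentile), the trend or the prior, all added afterwards, called 295, 378, 280, 302 and 369 genes. Log2 fold changes ran from 0.40 to 0.56 for Lgals9 (0.5482 without vimentin-deficient replicate 3 under each filter and variance model), 0.41 to 0.79 for Lgals3bp, -0.23 to 0.0122 for Lgals1, -0.0205 to 0.0226 for Lgals3 and -0.10 to 0.0119 for Lgals8. The last 3 changed sign in 1, 3 and 1 of 11 such fits, none past the threshold. The replicate block called 0 genes, against 3 without it, and 0 galectin genes. Deviations of same-numbered arrays from their group means correlated at 0.497, -0.194 and 0.055. With 3 arrays per group, 1 of them deviating, these values cannot decide whether the numbers pair the samples. Signal over background cannot be separated in these values, and folds of dim genes can be compressed.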

Other observations

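The galactosyltransferase gene B4galt1, which makes the N-acetyllactosamine that galectins bind, read 10.77 on vimentin-deficient replicate 2, against 9.98 and 9.76 on replicates 1 and 3 and 9.88 to 10.16 on the wild-type arrays. Its log2 fold change of 0.17 (SE 0.25) did not pass, and the value rests on that array. The phagocytic receptor gene Mertk, which is also on the partner list, read 9.53, 9.78 and 10.33 in vimentin-deficient replicates 1, 2 and 3, against 9.88, 10.19 and 10.28 in wild-type replicates 1, 2 and 3. Its log2 fold change was -0.23 with 6 arrays and -0.46 without vimentin-deficient replicate 3, where the limma adjusted p was 0.0946.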
